A study of Homo sapiens with 6 samples.

Results

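Integrins are heterodimers of an alpha and a beta chain that span the plasma membrane, bind matrix proteins outside the cell and gather cytoplasmic proteins inside it. Talin and the kindlins bind the beta tail and switch the receptor on, vinculin, zyxin and the tensins tie it to actin, and focal adhesion kinase (PTK2), paxillin and p130Cas (BCAR1) pass the signal on. Syndecans are transmembrane heparan sulfate proteoglycans that act beside integrins as matrix co-receptors. In glioma cells these proteins serve attachment to and migration through matrix.

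The 45 genes examined are integrin subunits, syndecans and focal adhesion proteins, listed by name and role without a threshold on their values, but with earlier results of these data known. Of these, 44 of the 18132 genes on the array were measured, through 149 probe sets that carry 1 gene symbol each. They comprised 28 receptors (17 alpha subunits, 7 beta subunits and 4 syndecans) and 16 cytoplasmic adaptors. ITGB6, the epithelial partner of the alpha V chain, was not measured because each of its 2 probe sets carries a further gene symbol.

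The arrays came from U87, an established human glioma line grown in DMEM with fetal bovine serum. PCGF1-shRNA cells (3 Affymetrix arrays) received a lentivirus whose short hairpin RNA targets PCGF1, a subunit of the repressive Polycomb complex PRC1.1, and NC cells (3 arrays) carried a negative control lentivirus. The number of hairpins or clones behind each group is not given in the sources used here. The sample names add T0 to every PCGF1-shRNA array and T1 to every NC array without explanation, so that T0 and T1 cannot be told apart from the knockdown. The replicates are labelled biological, but nothing says that they were separate cultures, so the p-values speak for the spread among these 6 samples, part of which may be technical.

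Values are RMA log2 signals from which the median of the 6 arrays had been removed probe set by probe set. They show differences between arrays only, so the level of a gene is not known, levels of different genes cannot be ranked, and the presence of U87, glial or other markers cannot be checked. In such bulk RNA, fewer cells with a transcript and less transcript per cell cannot be told apart. PCGF1 was at -0.27, -0.13 and -0.19 in PCGF1-shRNA arrays, against 0.13, 0.27 and 0.29 in NC arrays, a log2 fold change of -0.43 ± 0.06 (SE, limma, adjusted p = 0.00410). The groups did not overlap, and an exact two-sided permutation test gave p = 0.1, the smallest that 3 against 3 arrays allow. After the same centring, the ACTB control signal at the 3' end minus that at the 5' end lay between 0.00643 and 0.106 in PCGF1-shRNA arrays. In NC arrays it lay between -0.0710 and 0.0375. For GAPDH the ranges were -0.00767 to 0.0438 in PCGF1-shRNA arrays and -0.0143 to 0.00975 in NC arrays. These values compare arrays only and do not show how intact the RNA was. Their part in the results was not tested.

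Among the adhesion genes, 7 rose and 2 fell in PCGF1-shRNA cells (limma, Benjamini-Hochberg adjusted p under 0.05 over all genes), while 35 did not pass. ITGA10, SDC2, ITGA5, SDC1, ITGA7, ITGB5 and TLN2 rose, by 0.22 to 0.44 on the log2 scale. ITGA2 and SDC4 fell, by 0.62 and 0.18. The 9 called genes are 20.5% of the 44, beside 11% of all genes tested. The 7 that rose are 15.9%, beside 6.36% of all genes, and the 2 that fell are 4.55%, beside 4.63%. The median log2 fold change was 0.02 among the adhesion genes and -0.01 among all genes. The groups did not overlap for 18 of the 44, beside 32.7% of all genes.

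Of the 28 receptors, 6 rose and 2 fell (21.4% and 7.14%), and of the 16 cytoplasmic adaptors, 1 rose and 0 fell (6.25% and 0%). Of all genes tested, 6.36% rose and 4.63% fell. At an unadjusted p under 0.05 there were 11 receptors (39.3%) and 6 adaptors (37.5%), beside 26.6% of all genes. The receptors ranged from -0.62 to 0.44 and the adaptors from -0.16 to 0.22. Their medians were close, at 0.02 for receptors and 0.04 for adaptors. Fold changes were positive for 15 of the 28 receptors (53.6%) and 12 of the 16 adaptors (75%), beside 46.6% of all genes. The adaptor mean was 0.075, -0.0056 and 0.016 in PCGF1-shRNA arrays, against -0.022, -0.019 and -0.013 in NC arrays. PCGF1-shRNA replicate 1 thus stood apart from its group. The receptor mean was 0.012, -0.0058 and 0.022 in PCGF1-shRNA arrays, against -0.030, -0.0091 and 0.00052 in NC arrays. Receptors thus held both ends of the range, set by ITGA2 and ITGA10. The adaptors, fewer in number, lay on both sides of 0 in a narrower band. Regardless of sign, the median change was 0.0840 among receptors and 0.0805 among adaptors, beside 0.0691 among all genes. The difference between both classes was not tested.

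**Figure D1:**
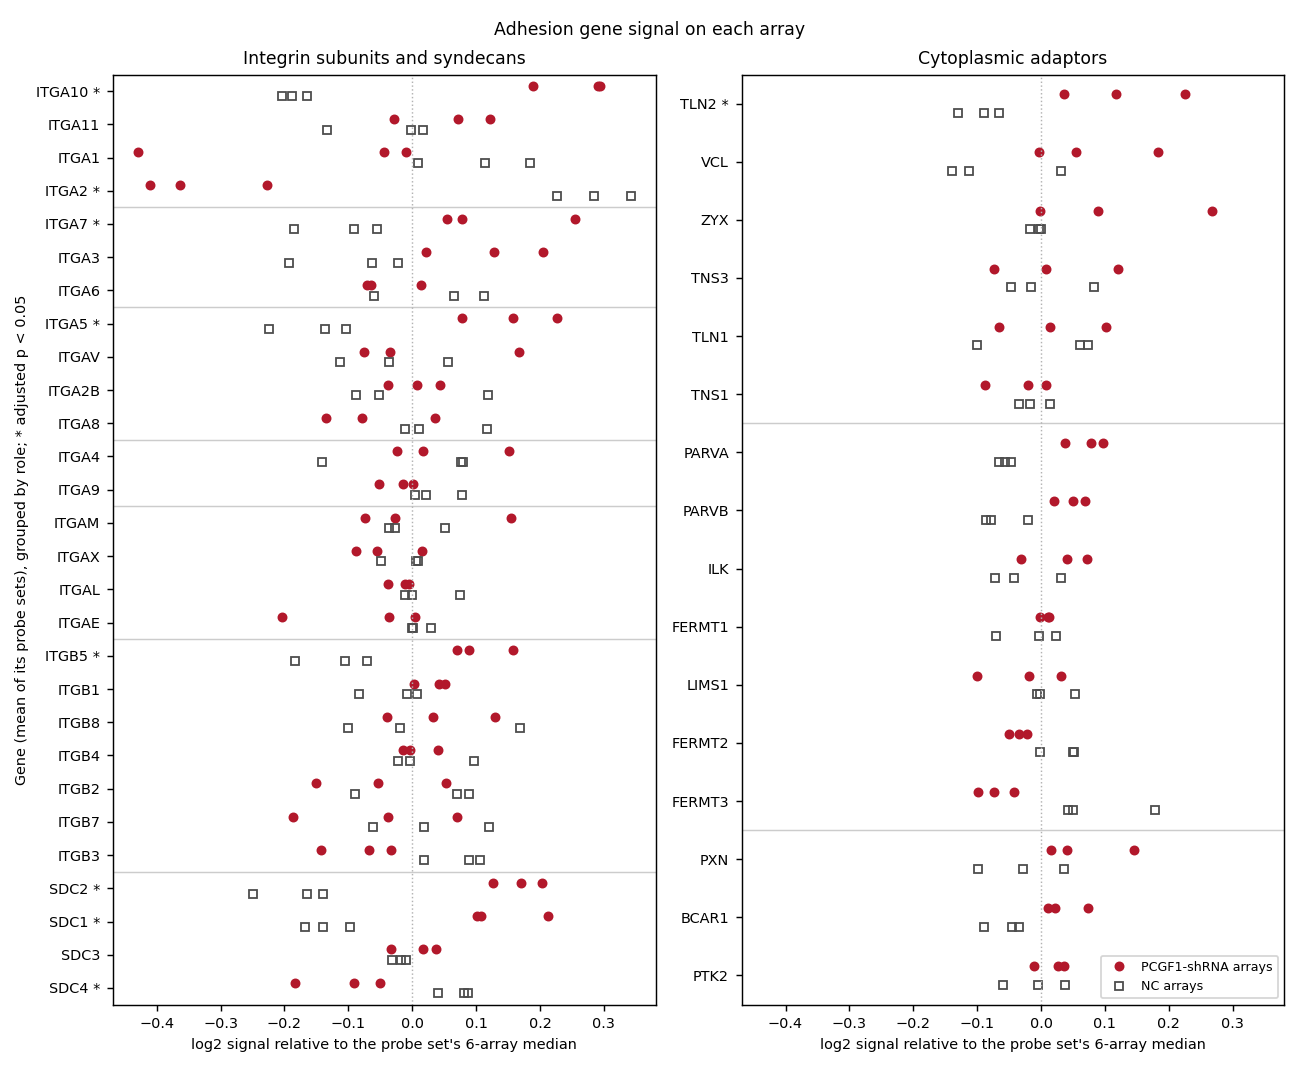
Log2 signal of each adhesion gene (mean of its probe sets, horizontal axis, relative to the 6-array median) on the 3 PCGF1-shRNA arrays (filled circles, upper row of each gene) and the 3 NC arrays (open squares, lower row), receptors on the left and adaptors on the right. The asterisk marks the 9 genes called by limma; ITGA2 and ITGA10 show the widest gaps between the groups.

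Among the adhesion genes, the collagen receptors held the largest changes in both directions. ITGA1, ITGA2, ITGA10 and ITGA11 encode the alpha chains that bind collagen, each through an inserted I domain and each with the beta1 chain. ITGA2 had values of -0.23, -0.41 and -0.36 in PCGF1-shRNA arrays, against 0.23, 0.34 and 0.28 in NC arrays. Every PCGF1-shRNA array was far below every NC array. The means were -0.33 ± 0.10 and 0.28 ± 0.06 (SD, n = 3 each), a log2 fold change of -0.62 ± 0.06 (SE, limma adjusted p = 0.000893), or 65.1% of the NC level. ITGA10, whose chain is best known from cartilage, had 0.19, 0.29 and 0.29 in PCGF1-shRNA arrays, against -0.19, -0.20 and -0.16 in NC arrays. Here all PCGF1-shRNA arrays were the higher ones, with a log2 fold change of 0.44 ± 0.04 (SE, limma adjusted p = 0.00110), or 1.36-fold.

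Promoter windows of these 2 genes are shown because they are the adhesion genes that moved furthest, in opposite directions, and because KDM2B, a subunit of PRC1.1, is known to bind unmethylated CG dinucleotides. Each window runs from 250 bases before to 50 bases after the annotated start (RefSeq, GRCh38.p14), 5′ to 3′ on the strand of the gene, with CG in capitals. The ITGA2 window is chr5:52989102-52989401 on the plus strand and the ITGA10 window is chr1:145910001-145910300 on the minus strand.
ITGA2: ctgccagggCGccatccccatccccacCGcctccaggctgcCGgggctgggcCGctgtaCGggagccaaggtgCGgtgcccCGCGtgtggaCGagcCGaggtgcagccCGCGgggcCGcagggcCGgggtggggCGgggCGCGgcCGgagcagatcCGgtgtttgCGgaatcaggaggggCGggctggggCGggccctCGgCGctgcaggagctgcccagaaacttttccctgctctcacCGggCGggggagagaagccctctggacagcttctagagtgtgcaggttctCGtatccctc
ITGA10: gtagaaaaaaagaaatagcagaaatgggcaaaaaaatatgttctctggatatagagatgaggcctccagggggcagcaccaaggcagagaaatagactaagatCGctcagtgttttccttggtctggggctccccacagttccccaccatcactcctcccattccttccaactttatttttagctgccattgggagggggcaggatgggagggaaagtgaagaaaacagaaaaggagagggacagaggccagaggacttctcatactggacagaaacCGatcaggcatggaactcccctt

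The ITGA2 window held 27 CG dinucleotides and the ITGA10 window 2. Of the 35116 RefSeq windows of the same length 28.2% held 27 or more and 18.2% held 2 or fewer; of the 20403 windows of genes on the array these shares were 37.3% and 10.1%. Of the 44 genes, 32 were matched to 54 windows, some genes having several starts, and their median was 19.5 CG (range 1 to 50), beside 21 for windows of genes on the array and 14 for all windows. Among the called genes with a window, SDC4, which fell, had 33, and of those that rose TLN2 had 45, ITGA5 16, SDC1 23 and 27, and ITGB5 between 11 and 32. The windows of the called genes thus ran from the 2 CG of ITGA10 to the 45 of TLN2, and no binding was measured here.

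The other collagen-binding chains did not pass. ITGA1 was at -0.04, -0.43 and -0.01 in PCGF1-shRNA arrays, against 0.18, 0.01 and 0.11 in NC arrays. All PCGF1-shRNA values were lower, but PCGF1-shRNA replicate 2 stood apart from its group, and the log2 fold change of -0.26 had an interval from -0.51 to -0.02 and an adjusted p of 0.162. ITGA11 was at 0.09 (adjusted p = 0.346) over 2 probe sets of opposite sign, one at 0.29 (adjusted p = 0.0406 when each probe set was tested singly) and the other at -0.10.

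Of the laminin-binding chains, ITGA7, the main laminin receptor chain of muscle, had 0.08, 0.05 and 0.26 in PCGF1-shRNA arrays, against -0.05, -0.19 and -0.09 in NC arrays. The groups did not overlap, and ITGA7 rose by 0.24 ± 0.06 (SE, limma adjusted p = 0.0488) on its single probe set. This call lay at the threshold and was lost when any array was left out (adjusted p 0.0584 to 0.139) and under 6 of the 8 other settings. ITGA3, the chain of a laminin-332 receptor, had 0.20, 0.02 and 0.13 in PCGF1-shRNA arrays, against -0.19, -0.02 and -0.06 in NC arrays. Its groups did not overlap either, but its log2 fold change of 0.21 did not pass (adjusted p = 0.0720). All 3 of its probe sets were higher, and 1 at 0.21 was called when each was tested singly (limma adjusted p = 0.0400). ITGA6, which pairs with beta1 or beta4, was at -0.08 (adjusted p = 0.401) with overlapping groups.

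Among the chains whose receptors recognise the RGD motif, ITGA5 passed. It encodes the alpha chain of the principal fibronectin receptor and had 0.16, 0.08 and 0.23 in PCGF1-shRNA arrays, against -0.22, -0.14 and -0.10 in NC arrays. All PCGF1-shRNA arrays were higher. ITGA5 rose by 0.31 ± 0.05 (SE, limma adjusted p = 0.0106), or 1.24-fold, and remained called when each array was left out. All 4 of its probe sets were higher, between 0.11 and 0.42. The call was lost without the _s_at and _x_at probe sets, which can bind several transcripts (log2 fold change 0.21, adjusted p = 0.0791). ITGAV, the alpha V chain shared by the vitronectin receptors, was at 0.05 (95% interval -0.12 to 0.22), ITGA2B, the platelet chain, at 0.01 and ITGA8 at -0.10, and none of them passed (adjusted p 0.325 to 0.926).

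ITGA4 and ITGA9, which form a structural subfamily that binds VCAM1 and other ligands, were at 0.04 and -0.06 and did not pass (adjusted p 0.764 and 0.420). The chains of leukocyte receptors and ITGAE, known from lymphocytes that reside in epithelia, lay near 0. ITGAL, ITGAM, ITGAX and ITGAE had log2 fold changes between -0.09 and 0.02, and none passed (adjusted p 0.375 to 0.862). Beside them, 0 of 9 measured leukocyte markers rose and 2 fell (22.2%, beside 11% of all genes). The 2 were the actin-bundling gene LCP1 at -0.40 and lysozyme (LYZ) at -0.19. The mean over these 9 markers lay between -0.09 and -0.02 in PCGF1-shRNA arrays and between 0.03 and 0.07 in NC arrays, and its part in the results was not tested. PTPRC, the defining leukocyte marker, was at -0.02 (adjusted p = 0.818).

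Of the 7 beta subunits measured, 1 rose and 0 fell (14.3%, beside 11% of all genes). ITGB5, which pairs with alpha V in a vitronectin receptor, had 0.16, 0.09 and 0.07 in PCGF1-shRNA arrays, against -0.07, -0.18 and -0.10 in NC arrays. The groups did not overlap, and ITGB5 rose by 0.23 ± 0.05 (SE, limma adjusted p = 0.0203) on its single probe set. The call was lost without PCGF1-shRNA replicate 1 and without NC replicate 2 or 3 (adjusted p up to 0.0676). ITGB3, another of the partners of alpha V, had -0.07, -0.14 and -0.03 in PCGF1-shRNA arrays, against 0.02, 0.09 and 0.11 in NC arrays. All PCGF1-shRNA arrays were lower and all 7 of its probe sets had negative fold changes, but the gene mean of -0.15 did not pass (95% interval -0.26 to -0.05, adjusted p = 0.0714). Of the 7 probe sets, 1 at -0.30 was called lower when each was tested singly (limma adjusted p = 0.0487).

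ITGB1, the common partner of 12 of the measured alpha chains, did not pass. Its values were 0.04, 0.05 and 0.00 in PCGF1-shRNA arrays, against -0.08, 0.01 and -0.01 in NC arrays, so that the groups overlapped. The log2 fold change of 0.06 had a 95% interval from -0.04 to 0.16 (adjusted p = 0.404). Its 5 probe sets disagreed, 4 lying between 0.11 and 0.18 with none called and 1 at -0.24 (adjusted p = 0.0479 when each was tested singly). Among the 12 alpha chains that pair with ITGB1, 3 rose and 1 fell (33.3%, beside 11% of all genes). These were ITGA5, ITGA7 and ITGA10, which rose, and ITGA2, which fell. ITGB2, ITGB4, ITGB7 and ITGB8 lay between -0.08 and 0.02 and did not pass (adjusted p 0.543 to 0.874).

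**Figure D2:**
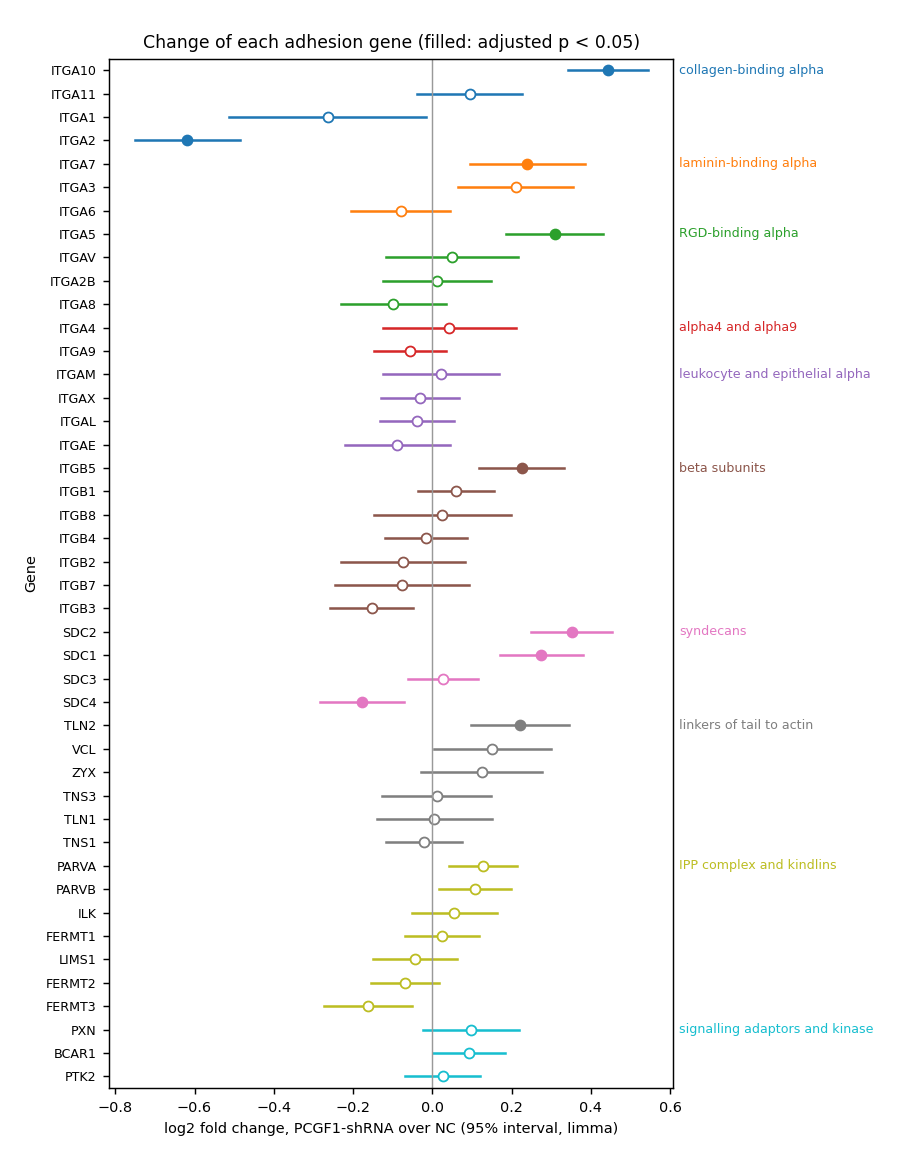
Log2 fold change of each adhesion gene (horizontal axis, PCGF1-shRNA over NC) with its 95% interval from limma, grouped and coloured by role. Filled points are the 9 called genes; only TLN2 among them is an adaptor, and the collagen-binding chains span the range from ITGA2 at -0.62 to ITGA10 at 0.44.

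Of the 4 syndecans, 2 rose, 1 fell and 1 did not pass (75% called, beside 11% of all genes). SDC2, a syndecan of mesenchymal cells, had 0.20, 0.17 and 0.13 in PCGF1-shRNA arrays, against -0.25, -0.14 and -0.17 in NC arrays. It rose by 0.35 ± 0.04 (SE, limma adjusted p = 0.00320), or 1.28-fold, and each of its 6 probe sets was called higher when tested singly (0.29 to 0.40). SDC1, the main syndecan of epithelia and plasma cells, had 0.10, 0.11 and 0.21 in PCGF1-shRNA arrays, against -0.10, -0.17 and -0.14 in NC arrays. It rose by 0.28 ± 0.05 (SE, limma adjusted p = 0.00947), or 1.21-fold. For both genes every PCGF1-shRNA array lay above every NC array, and both remained called when each array was left out.

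SDC4, the syndecan that localises to focal adhesions and cooperates with the fibronectin receptor, had -0.05, -0.18 and -0.09 in PCGF1-shRNA arrays, against 0.08, 0.09 and 0.04 in NC arrays. The PCGF1-shRNA arrays were all lower. SDC4 fell by 0.18 on the log2 scale (SE 0.05, limma adjusted p = 0.0453). The call was lost when any array was left out (adjusted p 0.0558 to 0.126), and the gene mean combined 1 probe set at -0.34 with 2 at -0.10 and -0.09. SDC3, the neuronal syndecan, was at 0.03 (95% interval -0.06 to 0.11, adjusted p = 0.718).

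Of the 6 proteins that link the integrin tail to actin, TLN2 alone passed (16.7%, beside 11% of all genes). TLN2, the second talin, had 0.23, 0.04 and 0.12 in PCGF1-shRNA arrays, against -0.13, -0.09 and -0.07 in NC arrays. The groups did not overlap. TLN2 rose by 0.22 ± 0.05 (SE, limma adjusted p = 0.0382), with both probe sets higher (0.18 and 0.26) but neither called singly (adjusted p = 0.0916 and 0.109). The call was lost with the most variable probe set (adjusted p = 0.115) and when any array other than PCGF1-shRNA replicate 2 was left out (adjusted p 0.0803 to 0.108). TLN1, the widely expressed talin, was at 0.00 (95% interval -0.14 to 0.15, adjusted p = 0.974). A test of the difference between both talins was not made.

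VCL, vinculin, had 0.18, 0.06 and -0.00 in PCGF1-shRNA arrays, against -0.14, 0.03 and -0.11 in NC arrays, with overlapping groups and a log2 fold change of 0.15 (adjusted p = 0.179). ZYX, zyxin, was at 0.12 (adjusted p = 0.278), where PCGF1-shRNA replicate 1 at 0.27 stood above the other 5 arrays. TNS1 and TNS3, tensins that bind the beta tail and actin, were at -0.02 and 0.01.

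The complex of ILK, LIMS1 (PINCH1) and a parvin sits on the beta tail beside the kindlins, which are encoded by FERMT1, FERMT2 and FERMT3. None of these 7 genes passed the limma test on its gene mean, and 3 (42.9%) had an unadjusted p under 0.05, beside the 26.6% of all genes. PARVA had 0.10, 0.04 and 0.08 in PCGF1-shRNA arrays, against -0.06, -0.05 and -0.07 in NC arrays. Its groups did not overlap, and the log2 fold change was 0.13 (95% interval 0.04 to 0.21, adjusted p = 0.0676). All 4 of its probe sets were positive, and 1 at 0.20 was called when each was tested singly (limma adjusted p = 0.0458). PARVB lay beside PARVA at 0.11 (adjusted p = 0.122), also without overlap. FERMT3, the kindlin of blood cells, had -0.07, -0.10 and -0.04 in PCGF1-shRNA arrays, against 0.18, 0.05 and 0.04 in NC arrays. All PCGF1-shRNA arrays were lower, with a log2 fold change of -0.16 (adjusted p = 0.0705). FERMT2, the widely expressed kindlin, was at -0.07 (adjusted p = 0.288), again with all PCGF1-shRNA arrays lower. ILK was at 0.06, FERMT1 at 0.02 and LIMS1 at -0.04, the last without 2 probe sets shared with its near-identical copies.

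None of the 3 signalling proteins passed, and they lay close together. PTK2, focal adhesion kinase, was at 0.03 (95% interval -0.07 to 0.12, adjusted p = 0.748). PXN, paxillin, was at 0.10 (adjusted p = 0.286) over 10 probe sets from -0.11 to 0.31. BCAR1 was at 0.09 (adjusted p = 0.181), its PCGF1-shRNA arrays all above its NC arrays. The 3 genes spanned 0.03 to 0.10.

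**Figure D3:**
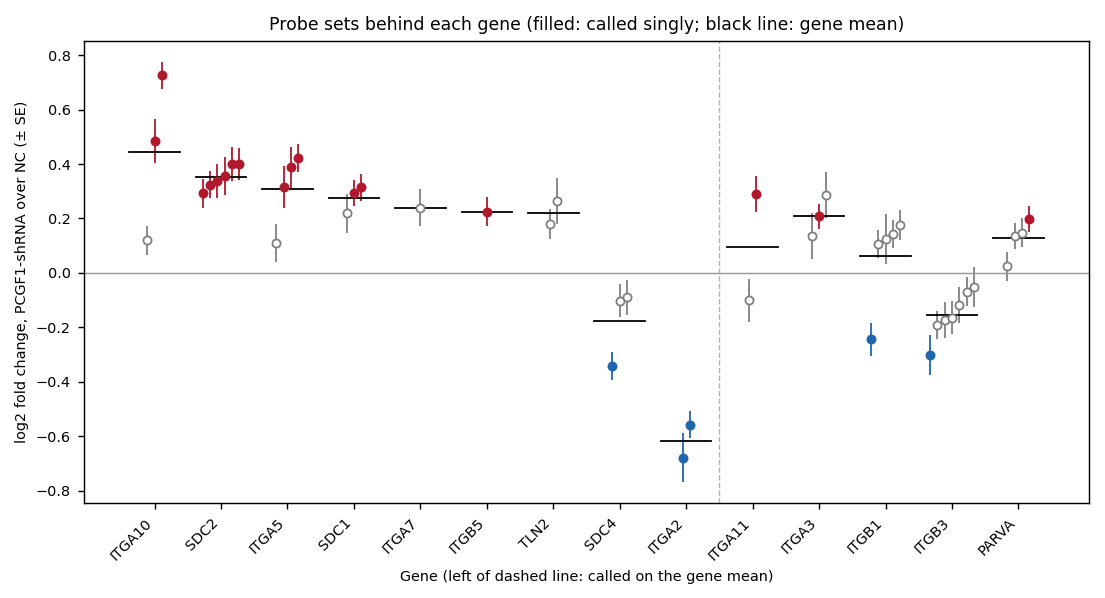
Log2 fold change (vertical axis, PCGF1-shRNA over NC, ± SE) of each probe set of the 9 called genes, left of the dashed line, and of the 5 other adhesion genes with a probe set called singly. Red and blue mark probe sets called higher and lower, and the black line is the gene mean; SDC2 and ITGA2 are called by all their probe sets, whereas ITGB1 and ITGA11 have probe sets on both sides of 0.

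Tested one by one over all probe sets on the array, 17 of the 149 probe sets rose and 5 fell, 14.8% of them, beside 7.3% of all single-symbol probe sets. Probe sets of the same gene are not independent. These calls came from 12 genes, and SDC2 gave 6 and ITGA5 gave 3 of the 17 that rose. Of the 35 genes with several probe sets, 18 had probe sets of both signs, and in 2 of these, ITGB1 and ITGA11, a probe set was called. ITGA10 had probe sets at 0.73, 0.48 and 0.12, all higher, and the lowest of them did not pass. ITGA2 was lower by both of its probe sets, at -0.68 and -0.56.

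The ligands of these receptors were examined beside them. Of 38 measured matrix ligands of integrins and syndecans, 11 rose and 1 fell, 31.6% beside 11% of all genes, with a median log2 fold change of 0.09. COL5A1, a fibrillar collagen chain, had 0.48, 0.40 and 0.53 in PCGF1-shRNA arrays, against -0.41, -0.48 and -0.44 in NC arrays. Every PCGF1-shRNA array was well above every NC array, and COL5A1 rose by 0.91 ± 0.05 (SE, limma adjusted p = 0.000149). COL1A1, the alpha1 chain of collagen I, rose by 0.61 ± 0.06. The fibrinogen chain FGB fell by 0.16, a call lost when any array was left out (adjusted p 0.0667 to 0.129). The 8 other ligands that rose, apart from FN1, were COL1A2 at 0.60, THBS2 at 0.39, LAMC1 at 0.38, COL6A1 at 0.36, TGFBI at 0.30, CCN2 at 0.29, FBN1 at 0.25 and CCN1 at 0.21. FN1, fibronectin, the ligand of the ITGA5 receptor, had 0.23, 0.15 and 0.14 in PCGF1-shRNA arrays, against -0.19, -0.13 and -0.17 in NC arrays. It rose by 0.34 ± 0.04 with no overlap of the groups; its values by array are given because of that pairing, a choice made after they were seen. The other listed collagen chains did not pass (adjusted p 0.136 to 0.906). COL3A1 was at 0.02, COL6A2 at 0.02 and COL6A3 at 0.10, whereas COL4A1 was at -0.12 and COL4A2 at -0.09. That some collagen chains rose in these arrays was already known when the list was made.

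Of 36 other cytoplasmic adaptors and actin linkers, 2 rose and 0 fell (5.56%, beside 11% of all genes, median 0.03). The 2 were TNS2, a tensin, at 0.32 ± 0.05 (SE, limma adjusted p = 0.00714) and ENAH, an actin polymerisation factor of focal adhesions, at 0.30 ± 0.04 (adjusted p = 0.00476). Of 38 focal adhesion signalling enzymes and scaffolds, 3 rose and 5 fell (21.1%, beside 11% of all genes, median 0.00). RHOA, the GTPase that drives stress fibres and contraction, had -0.18, -0.16 and -0.21 in PCGF1-shRNA arrays, against 0.19, 0.17 and 0.15 in NC arrays. It fell by 0.36 (SE 0.04, adjusted p = 0.00134), and CRKL, an adaptor that binds BCAR1 and paxillin, fell by 0.28 (SE 0.04). ARHGAP26, a GTPase-activating protein for RHOA that binds focal adhesion kinase, rose by 0.26 ± 0.05 and the adaptor SHC1 by 0.22 ± 0.05, and each of these 2 calls was lost in some of the fits with an array left out (adjusted p up to 0.0550 and 0.0821).

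Of 38 activators, inactivators and surface partners of integrins, 6 rose and 0 fell (15.8%, beside 11% of all genes, median 0.01). KANK1 and KANK2, which bind talin at the rim of focal adhesions, rose by 0.46 ± 0.05 and 0.33 ± 0.05 (SE); with _s_at and _x_at probe sets left out, neither passed (adjusted p = 0.0558 and 0.0835). Of 33 contractile and stress fibre genes, 3 rose and 1 fell (12.1%, beside 11% of all genes, median 0.01). MYLK, the myosin light chain kinase, rose by 0.30 ± 0.05 and MYL9, a regulatory light chain, by 0.28 ± 0.04. SMTN, smoothelin, fell by 0.19, a call lost in all but 1 of the fits with an array left out (adjusted p up to 0.0942).

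**Figure D4:**
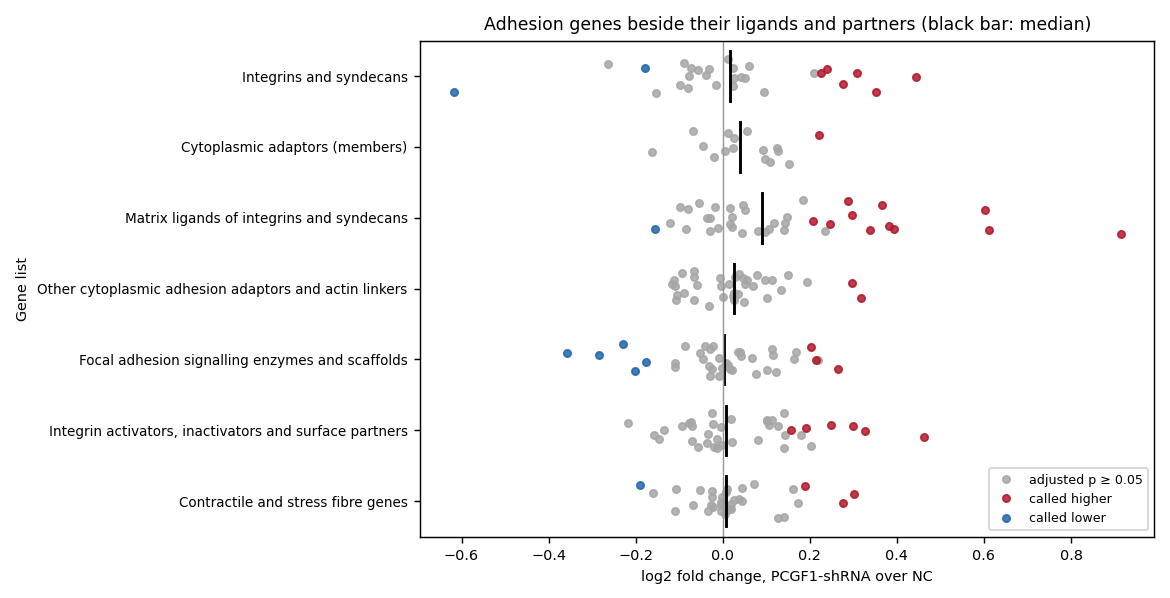
Log2 fold change (horizontal axis, PCGF1-shRNA over NC) of each measured gene of the 2 classes of adhesion genes and of 5 lists of their ligands and partners, with the median as a black bar and vertical scatter for legibility. Red and blue points are called higher and lower; the matrix ligands hold the highest values, up to COL5A1 at 0.91, and the receptors the lowest, ITGA2 at -0.62.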

How the data were processed

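Total RNA of 6 U87 samples was hybridised to Affymetrix arrays as biotin-labelled cRNA. The deposited values are log2 signals, 1 for each probe set on each array. RMA is the method named, per the submitters' processing notes; the log2 base follows from RMA and is not recorded in the table. Every probe set's median over the arrays was 0 within 4.85e-07, a centring that no source describes, so filters on dim probe sets could not be applied. The table held 49395 probe sets, of which 102 controls were left out. In the platform annotation 44988 had 1 gene symbol and were averaged per gene to 18132 genes. All array medians lay between -0.00238 and 0.00399, and no further normalization was applied.

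PCGF1-shRNA was compared with NC with limma 3.58.1 under R 4.3.3, using lmFit and eBayes without covariates, over all genes (two-sided), with Benjamini-Hochberg adjustment and a threshold of 0.05; ± after a fold change is limma's SE. On simulated data for this comparison with 18132 genes, 55.1% of changes of 0.3 and 93.5% of changes of 0.6 (log2) were recovered. The simulation changed 200 genes, whereas 1994 were called in the data. The adjustment depends on the share of changed genes, so this recovery need not hold for the real arrays. The number of arrays limits the precision. The members and lists were chosen with earlier results of these data known. Called members were given by array. The largest rise and fall of each role, where not called, were given by fold change and in some cases also by array. Of each list, up to 2 called genes per direction were named, most with their errors. For the matrix ligands the other called genes were added after their values were seen. Of 194 list entries 183 were measured, 2 of these through older symbols. Alternatives were 3 choices of probe sets, 2 normalizations, array weights, robust variances, the replicate number as a block and leaving out each array.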

Additional observations from a re-analysis of the deposited data

How the results depend on the processing

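ITGA2, ITGA10 and SDC2 were called under all 14 alternatives, and SDC1 under the 13 that could be run for it. SDC1 has only _s_at probe sets, so its call could not be checked without them. The numbers of adhesion genes that rose and fell were 7 and 2. With any 1 array left out between 4 and 6 rose and 1 fell. The number of genes called over the whole array was then between 980 and 1402 in place of 1994. When a gene was read from its most variable probe set, and likewise without the _s_at and _x_at probe sets, 4 rose. After quantile normalization 1 fell, and with each probe set tested singly 4 genes had a probe set that fell, ITGB1 among them at -0.24 against a gene mean of 0.06; read from its most variable probe set, the same one, ITGB1 did not pass (adjusted p = 0.0638). With the replicate block 1 gene fell, 5 rose, TLN2 and ITGA7 not among them (adjusted p = 0.0827 and 0.0615), and 1036 genes were called in all; same-numbered arrays did not deviate together (correlations of deviations from the group means between -0.05 and 0.01), so the numbers are not taken as pairs. Over all members and alternatives 33 results lost a call, 4 gained one in the same direction, 1 turned and 575 kept their side of the threshold. Every gain, and the turn, came with each probe set tested singly. In that setting a gene was read from its probe set with the smallest p, so a call there is a selected one. The cause of the changes in call was not tested. Signal over background is not known from centred values.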

Other observations

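Markers of other cell types and of glia were measured beside the adhesion genes. None of 6 endothelial, 6 epithelial and 8 glial or glioma markers was called by limma in either direction, beside 11% of all genes. At an unadjusted p under 0.05 there were 1 endothelial, 1 epithelial and 0 glial or glioma markers. Of the 8 glial or glioma markers, SOX2 was at 0.07 and the other 7 were negative, from OLIG2 at -0.23 to GFAP at -0.0031, with NES at -0.13, AQP4 at -0.12, CD44 at -0.08, S100B at -0.03 and VIM at -0.03. The mean over these 8 markers lay between -0.07 and -0.02 in PCGF1-shRNA arrays and between -0.0099 and 0.06 in NC arrays, without overlap. The mean over the 6 endothelial markers lay between -0.06 and -0.02 in PCGF1-shRNA arrays and between 0.00018 and 0.08 in NC arrays, also without overlap, whereas the ranges of the epithelial mean overlapped (-0.05 to 0.08 in PCGF1-shRNA arrays and -0.05 to 0.02 in NC arrays). The part of these markers in the results was not tested. The epithelial gene EPCAM was at 0.29 (adjusted p = 0.0890) and the endothelial gene PECAM1 at -0.21 (adjusted p = 0.111).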
